A study of Homo sapiens with 3 samples.

Results

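Gene expression was compared between a PANC-1 line that expressed wild-type JMJD3 and a PANC-1 line that expressed a mutant JMJD3, 2 of the 3 arrays of the series. PANC-1 is an established cell line from a human pancreatic ductal adenocarcinoma. All 3 lines were stable and received no further treatment, and the control line carried the empty MSCV retroviral vector. Total RNA was extracted with Trizol, and biotin-labelled cRNA was read on Affymetrix arrays, 1 per line. The labels do not say which residue the mutant changes, whether it has lost its enzyme activity, or whether each line was a clone or a pool. HKDC1 and spectrin are the subject of the series title, and the wild-type and mutant proteins are compared here over all genes and gene families.

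Each gene was represented by the brightest of its probe sets, chosen by the mean over the 3 arrays. Signals are log2 values, and values under the pooled median of all arrays, log2 5.48, were set to that floor. A gene was measured where the wild-type or the mutant array was over the floor, which held for 12829 of 19775 genes. Differences are wild-type minus mutant on the log2 scale, so that a gene called higher is higher with wild-type JMJD3, and a fold is 2 raised to the size of that difference. A fold with 1 of the arrays at the floor is only a lower bound, written as at least. No line had a replicate. The differences therefore carry no error and no test, and the number of arrays limits the precision. The control is given beside the pair, and since all comparisons share arrays, agreement with the control is not independent evidence.

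JMJD3, the protein of KDM6B, removes methyl groups from a lysine of histone H3 that the Polycomb complex PRC2 methylates, and it can thereby open genes that Polycomb keeps silent. A catalytically dead form is the usual control for this activity, since proteins of this family also act through binding partners. In pancreatic ductal cells the Polycomb system takes part in keeping cell identity.

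The wild-type and mutant arrays differed by 2-fold or more at 8.81% of the measured genes. Of these, 335 genes (2.61%) were higher and 795 genes (6.2%) lower with wild-type JMJD3. The median difference over all measured genes was 0.00, the quartiles were -0.34 and 0.31, and the 5th and 95th percentiles were -1.07 and 0.83. The lower side therefore had the longer tail: 138 genes were lower and 46 higher by 3-fold or more, 38 lower and 9 higher by 4-fold, and 4 lower and 1 higher by 8-fold. Of the 795 lower genes, 67 were bounds against the floor, as were 5 of the 335 higher genes. Over all measured genes 49.7% of the differences lay above 0, 40.5% below and 9.78% at 0. Counts of list members are to be read beside these shares and those past 2-fold.

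**Figure D1:**
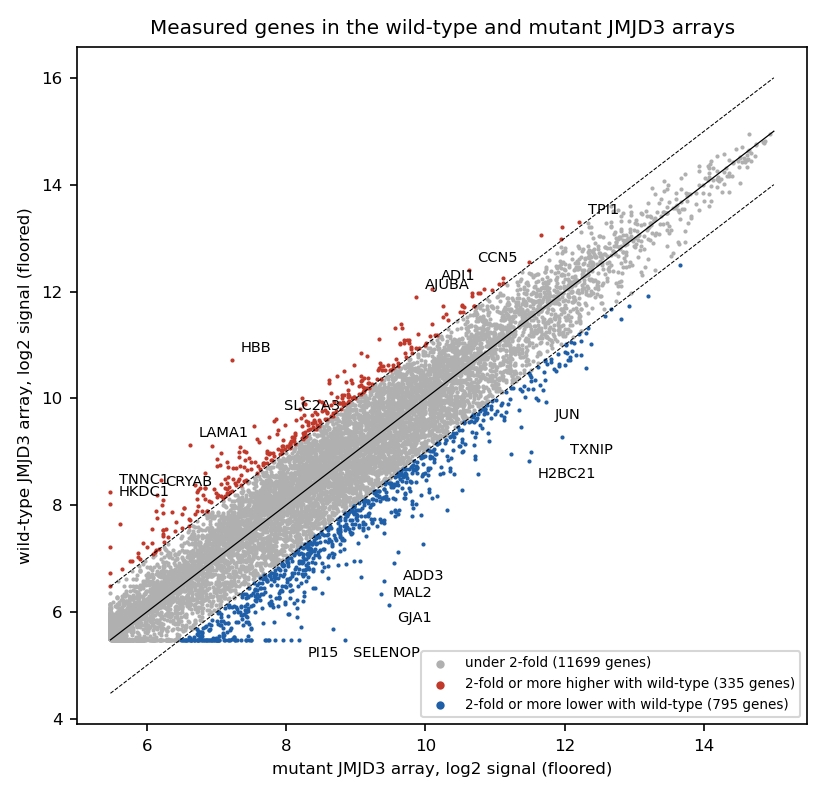
Log2 signal of the 12829 measured genes with wild-type JMJD3 (vertical axis) against mutant JMJD3 (horizontal axis), 1 array each, after flooring at 5.48, with a solid line at equal signal and dashed lines at 2-fold. More genes lie past the lower dashed line (795) than past the upper one (335), and HBB stands farthest above while GJA1 and SELENOP stand farthest below among the labelled genes.

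The excess of lower genes depended on signal. When measured genes were ranked by their mean over both arrays and split into 10 classes, the share of lower genes was 9.74% in the fourth class and 3.51% in the brightest, while the share of higher genes reached 4.13% in the eighth class. In the dimmest class, where most values lie near the floor, the shares were 0.701% and 0.156%. The lower genes had a median signal of 8.04 and the higher genes of 8.79, against 8.34 for genes under 2-fold. The share of lower genes was thus highest at middling to low signal and not at either end.

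**Figure D2:**
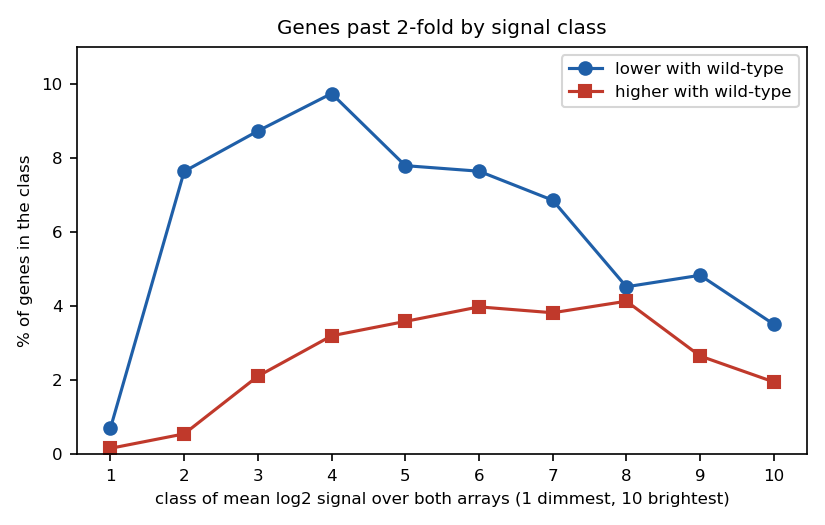
Share of genes, in percent, that were 2-fold or more lower (circles) or higher (squares) with wild-type JMJD3 in each of 10 classes of mean log2 signal, from the dimmest to the brightest. The lower share peaks in the fourth class at 9.74% and is 3.51% in the brightest, and the higher share peaks at 4.13% in the eighth class.

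Probe sets that were not used for the gene value give a partial check within the same arrays. For the higher genes, 79.4% of 281 further measured probe sets had the same direction and 21% were also past 2-fold. For the lower genes the shares were 78.2% and 29.9% of 807. In each direction 5 probe sets were past 2-fold the opposite way. Probe sets of one gene share the RNA and the array, so this is no replicate. Below, a gene's probe set median is the difference between the 2 arrays in the median signal of all its probe sets, floored after that median. Probe sets under the floor in every array count in it, so a small value need not be a disagreement between measured probe sets. Of 389 named genes past 2-fold by their brightest probe set, 129 had a probe set median under 2-fold without a turned sign. For 8 it had the opposite sign. Genes named for their size, among the 30 largest differences of a side, had to have all measured probe sets agree in sign. A shared direction in such a gene was a condition of this choice by size and is no check.

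The cells were checked against markers. Of 9 ductal or PANC-1 markers on the array 8 were over the floor in each array, and CFTR was at the floor. The keratins KRT8 and KRT18 and the intermediate filament gene VIM were bright (KRT8 11.76, 11.97 and 10.67, and VIM 13.27, 13.34 and 13.28 in control, wild-type and mutant). KRT19, a keratin of ductal cells, read 5.55 in control against 8.0 and 7.73 in the JMJD3 lines. For acinar, islet and leukocyte cells, 4 of 5, 7 of 8 and 8 of 10 markers were at the floor in every array, among them PNLIP, INS and PTPRC. In RNA of a whole culture, fewer cells of a type and less RNA per cell cannot be told apart.

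KDM6B gave no clear difference between the lines. Its brightest probe set read 7.60 in control, 7.66 with wild-type and 7.65 with mutant JMJD3, and its other measured probe sets differed by 0.11 to 0.28 between the JMJD3 lines. Which of them read the introduced sequence is not stated, so these values check neither label. KDM6A, the sister demethylase on the X chromosome, read 7.57, 6.75 and 7.34, a difference of -0.59 with the wild-type array lowest. The 6 core subunits of PRC2 all lay below 0, with a median of -0.32, and none was past 2-fold. SUZ12, a core subunit, read 11.25, 10.53 and 11.41, and EZH2, the methyltransferase, 10.15, 9.73 and 10.07. AEBP2, a PRC2 accessory subunit, read 10.51, 9.96 and 10.96 and was 2.0-fold lower, and it falls just under 2-fold when the arrays are moved to one median.

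Among the other 55 measured histone and DNA modifiers, 1 was higher and 1 lower by 2-fold, and the list's median was 0.15. HDAC9, a class II deacetylase, read 6.96 in control, 5.56 with wild-type and 7.46 with mutant JMJD3, 3.73-fold lower. HDAC8, a class I deacetylase, read 8.13, 8.81 and 7.56, 2.38-fold higher, and 0.51 on the log2 scale over the median of its probe sets. The wild-type array was thus at one end for both genes, with the control between. Of 16 measured PRC1 subunits and readers none was past 2-fold, and the farthest was PHC3, a Polyhomeotic subunit, with 10.09, 9.32 and 10.31.

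HKDC1, a hexokinase family member, was over the floor with wild-type JMJD3 only (8.02, against 4.19 in control and 4.24 with the mutant), at least 5.82-fold higher. Its probe set median was 0.31, and its 3 measured probe sets had one direction. Where the mutant array is at the floor, a probe set counts as measured only if the wild-type array is over it. The shared direction can come from that rule and is no check. HBB, the beta globin gene, had the largest difference with both arrays over the floor. It read 7.53, 10.71 and 7.23, and was 11.2-fold higher, but its probe set without shared probes differed by only 0.60. Of 7 erythroid markers 4 (HBD, ALAS2, SLC4A1 and HBZ) were at the floor in all arrays, and the summed linear signal of the list was 404 in control, 1897 with wild-type and 379 with the mutant, with HBB the brightest member. The part of other cells in this value was not tested.

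Other high values of the wild-type array came from genes of muscle, epithelia and the secretory path. TNNC1, a troponin of slow and cardiac muscle, read 6.61, 8.24 and 5.47 and was at least 6.77-fold higher, and ACTC1, cardiac actin, read 6.11, 7.21 and 6.00, 2.31-fold higher. Of 14 striated muscle markers 8 were at the floor throughout, including MYH7, CKM and MYOG, and the summed signal of the list was 1445, 1955 and 2017, so it was not highest in the wild-type array. LAMA1, a laminin chain, read 8.18, 9.12 and 6.62 and was 5.66-fold higher. ALPP, placental alkaline phosphatase, read 7.79, 9.10 and 6.94 and was 4.47-fold higher. SSTR1, a somatostatin receptor, read 9.05, 9.48 and 7.54 and was 3.84-fold higher. In the last 3 of these the mutant array was lowest, the control was between, and for LAMA1 and SSTR1 the control lay nearer to the wild-type array.

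ADI1, an enzyme of methionine salvage, was bright and read 11.36, 12.05 and 10.10, 3.86-fold higher. Both its measured probe sets had the same direction, a condition of its choice by size. CCN5, a matricellular protein, read 11.56, 12.40 and 10.62, and was 3.43-fold higher. SERPINH1, the collagen chaperone of the endoplasmic reticulum, was 3.39-fold higher (8.69, 9.58 and 7.82). FOXQ1, a forkhead factor, was 3.36-fold higher (10.27, 11.32 and 9.57), PLAC8 3.34-fold (10.30, 11.39 and 9.65) and TNFRSF12A, the receptor of TWEAK, 3.18-fold (9.83, 10.28 and 8.61). For FOXQ1 and PLAC8 the wild-type array stood above both others. AP1M2, the clathrin adaptor subunit of polarised epithelia, was 3.41-fold higher, FUCA2, a fucosidase, 3.39-fold, NEU1, the lysosomal sialidase, 3.18-fold, and SLC51B, a subunit of a bile acid transporter, 3.18-fold.

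On the lower side the control lay nearer to the wild-type array for some genes and nearer to the mutant array for others. GJA1, the gap junction protein of the connexin family, read 5.54 in control, 6.13 with wild-type and 9.48 with mutant JMJD3, and was 10.2-fold lower. MAL2, a protein of apical transport in epithelia, read 4.95, 6.59 and 9.41 and was 7.06-fold lower. In both genes the control and wild-type arrays were low. KCTD12, an auxiliary subunit of GABA type B receptors, differed in that the wild-type array was also below control (7.67, 6.33 and 9.36), and it was 8.17-fold lower. CD24, a surface glycoprotein of progenitor and tumour cells, read 7.96, 7.12 and 9.61 and was 5.62-fold lower. All 5 of its measured probe sets had the same direction, a condition of its choice by size. Its probes are largely shared with related sequences.

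SELENOP, the plasma selenium carrier, was over the floor in the mutant array and not in the wild-type one (7.51, 5.37 and 8.84), at least 10.3-fold lower, but its other measured probe set differed by only -0.12. PI15, a secreted peptidase inhibitor, read 3.97, 3.80 and 8.19, at least 6.54-fold lower. C5, a complement component, read 7.29, 4.52 and 7.96, at least 5.58-fold lower, and TNFSF15, a cytokine of the tumour necrosis factor family, 6.17, 5.22 and 7.50, at least 4.06-fold lower. PI15 and TNFSF15 had probe set medians of -0.97 and -0.12, but each had only 1 measured probe set. These medians therefore include probe sets under the floor. Only for PI15 among these 4 was the control at the floor together with the wild-type array. ATP8A1, a phospholipid flippase, was 5.35-fold lower (6.95, 6.65 and 9.07), HACE1, a ubiquitin ligase, 4.20-fold (6.59, 5.97 and 8.04), and B3GNT5, which starts lacto-series glycolipids, 4.06-fold (8.57, 6.96 and 8.98).

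**Figure D3:**
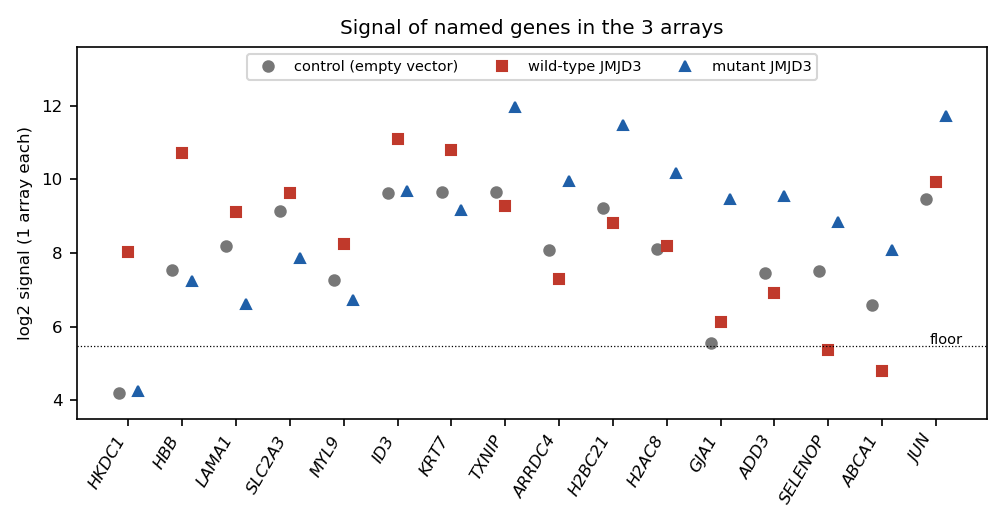
Deposited log2 signal of 16 genes in the control (circles), wild-type JMJD3 (squares) and mutant JMJD3 (triangles) arrays, 1 array each, with the floor of 5.48 as a dotted line. HKDC1, HBB and ID3 are high in the wild-type array alone, GJA1, TXNIP and the histone gene H2BC21 are high in the mutant array alone, and for SELENOP and ABCA1 the wild-type array lies under the floor.

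TXNIP and ARRDC4 are related alpha-arrestins that slow glucose uptake, and their genes are classic targets of the glucose-sensing MondoA and MLX factors, which bind pairs of E-box-like elements. Both were lower with wild-type JMJD3. TXNIP read 9.67 in control, 9.27 with wild-type and 11.96 with mutant JMJD3, 6.45-fold lower. All 3 of its probe sets had the same direction, a condition of its choice by size. ARRDC4 read 8.08, 7.28 and 9.96, 6.41-fold lower. ARRDC3, a further alpha-arrestin, read 8.40, 7.75 and 8.75, 2.0-fold lower, so that 3 of the 5 measured alpha-arrestins were past 2-fold. The factors themselves were close to level: MLXIP, which encodes MondoA, read 8.80, 9.17 and 8.98, MLX 9.59, 10.02 and 9.82, and MLXIPL 6.60, 6.60 and 6.85. TXNRD2, the mitochondrial thioredoxin reductase, was 2.24-fold higher (9.13, 9.53 and 8.37), with a probe set median of 0.58.

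The 250 bases before the annotated starts of TXNIP and ARRDC4 are shown because these 2 genes had nearly the same difference. They come from RefSeq on GRCh38.p14 (TXNIP at chr1:145996580-145996829, minus strand, and ARRDC4 at chr15:97960453-97960702, plus strand), 5′ to 3′ along the gene's strand. Capitals mark, in TXNIP, a pair of CACGNG elements with 5 bases between them and, in ARRDC4, the E-box CACGTG, both searched on both strands.
TXNIP: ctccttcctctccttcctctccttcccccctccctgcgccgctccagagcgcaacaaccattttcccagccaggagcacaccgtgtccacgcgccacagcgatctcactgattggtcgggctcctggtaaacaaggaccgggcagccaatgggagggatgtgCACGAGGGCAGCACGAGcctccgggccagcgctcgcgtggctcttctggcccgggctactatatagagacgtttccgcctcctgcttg
ARRDC4: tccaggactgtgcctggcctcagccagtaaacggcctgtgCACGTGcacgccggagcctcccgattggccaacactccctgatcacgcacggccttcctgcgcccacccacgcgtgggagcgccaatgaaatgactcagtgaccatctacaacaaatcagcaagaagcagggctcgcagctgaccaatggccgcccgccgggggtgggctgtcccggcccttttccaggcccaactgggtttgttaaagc
Over windows from 250 bases before to 50 after the start, the pair was found in 0.073% of 27305 promoters, and the E-box in 7.44%. The pair was searched after the TXNIP sequence was seen, so its match there was fixed and its rarity supports nothing. Among measured genes with a promoter sequence the pair was found in 0.164%, and among lower genes in 3 (0.457%). A match is a description of the letters and not a site. Among the lower genes with a promoter sequence the E-box was found in 9.60%, against 10.1% of the measured genes.

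Glucose transport and glycolysis leaned to the wild-type array. Of 28 measured genes 21 lay above 0 and 7 below, and the median was 0.43 against 0.00 over all measured genes. By 2-fold 5 were higher and 2 lower (17.9% and 7.14%, against 2.61% and 6.2% of all measured genes). The glucose transporter SLC2A3 read 9.13 in control, 9.62 with wild-type and 7.85 with mutant JMJD3, 3.41-fold higher. Its 3 probe sets had the same direction, a condition of its choice by size. The transporter SLC2A1 read 8.27, 8.80 and 7.15, 3.14-fold higher. ALDOC, an aldolase, read 9.22, 9.18 and 7.61, 2.97-fold higher, and TPI1, triose phosphate isomerase, 13.07, 13.30 and 12.21, 2.13-fold higher, but 0.09 without shared probe sets. PFKFB4, which sets the level of the allosteric activator of phosphofructokinase, was 2.24-fold higher (8.60, 8.34 and 7.18). SLC2A1 and PFKFB4 had probe set medians of 0.74 and 0.58. For each of these 5 genes the mutant array was below control, and the list's median was 0.15 for wild-type minus control and -0.36 for mutant minus control.

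Of the other hexokinases, HK1 read 9.55, 10.09 and 9.60, and HK2 9.95, 9.95 and 9.62, both under 2-fold, and HK3 was 5.63 in every array. Members on the lower side were SLC2A13, a proton-coupled inositol transporter, 3.46-fold lower (8.13, 8.02 and 9.81), and PDK3, a kinase that inhibits pyruvate dehydrogenase, 2.40-fold lower (9.21, 8.15 and 9.41). PDK3 turned to 0.36 with the median over its probe sets. Hypoxia genes past 2-fold were mostly lower. HIF1A, the oxygen-regulated factor, was 2.13-fold lower (11.80, 11.22 and 12.31) and MXI1, a MYC antagonist, 2.10-fold lower (11.17, 10.83 and 11.90), while P4HA2, a collagen prolyl hydroxylase, was 2.10-fold higher (9.80, 10.20 and 9.13) with a probe set median of 0.00. Of 26 measured hypoxia genes 1 was higher and 5 lower by 2-fold (3.85% and 19.2%, against 2.61% and 6.2% of all measured genes). The list's median was 0.02, and -0.36 without shared probe sets.

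Cholesterol synthesis genes were higher throughout. All 16 synthesis enzymes lay above 0, with a median of 0.57, and 3 of the 22 measured genes of the list were past 2-fold, all higher. EBP, the sterol isomerase, read 11.32 in control, 11.58 with wild-type and 10.29 with mutant JMJD3, 2.45-fold higher. ACAT2, which makes acetoacetyl-CoA, read 9.80, 9.88 and 8.55, 2.51-fold higher, and SQLE, squalene epoxidase, 9.83, 9.77 and 8.71, 2.09-fold higher. In these 3 genes the wild-type and control arrays lay close together and the mutant array lay below both. EBP and SQLE were under 2-fold with the median over their probe sets. FASN, the fatty acid synthase, was 2.13-fold higher (8.44, 9.03 and 7.94), and so was SREBF1, the lipogenic factor, at 2.07-fold (9.65, 10.03 and 8.98), with a probe set median of 0.66. The fatty acid list, with 9 of 16 genes above 0 and a median of 0.17, turned to -0.51 when shared probe sets were left out.

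In the list of the LXR receptors and sterol efflux, 6 of 10 genes lay above 0 and the median was 0.095 (-1.21 without shared probe sets). The 4 past 2-fold were all lower (40%, against 6.2% of all measured genes), and across the alternatives that count ran from 1 to 4. ABCA1, the cholesterol exporter, read 6.59 in control, 4.79 with wild-type and 8.07 with mutant JMJD3, at least 6.02-fold lower in its brightest probe set. The other measured probe set of ABCA1 was at least 3.76-fold lower, and its probe set median of -0.20 includes probe sets under the floor in every array. ABCG1, its partner in export to lipoproteins, read 5.37, 5.72 and 8.21, 5.62-fold lower, with all 4 probe sets past 2-fold. MYLIP, the ligase that degrades the LDL receptor, was 2.64-fold lower (7.47, 7.06 and 8.46), and ABCA5 2.91-fold (8.78, 7.07 and 8.61). ABCA5 and MYLIP had probe set medians of -0.70 and -0.54, and the other probe set of ABCA5 was under the floor in every array. The 6 genes above 0, among them the receptor NR1H3 (9.35, 9.64 and 9.49), were under 2-fold. PPARGC1A, a coactivator of mitochondrial genes, was 3.66-fold lower (7.71, 6.88 and 8.75), and PPARA, a receptor for fatty acids, 2.48-fold (8.21, 7.54 and 8.85). The probe set median of PPARGC1A was -0.94.

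Canonical histone genes, whose transcripts usually end in a stem-loop in place of a poly(A) tail, were lower as a group. Whether the arrays read stem-loop or polyadenylated transcripts of these genes was not tested. Of 29 measured genes 26 lay below 0, 3 at 0 and none above. Of these 10 genes (34.5%, against 6.2% of all measured genes) were 2-fold or more lower, and the median was -0.66. H2A genes had a median of -1.25 with 4 of 7 past 2-fold, H2B genes -0.79 with 3 of 9, H3 genes -0.39 with 1 of 4, H4 genes -0.42 with 1 of 5, and H1 genes -0.25 with 1 of 4. The H2A and H2B genes were the brighter ones, with median signals of 8.50 and 9.14. The 7 measured histone variant genes had a median of 0.06 and none was past 2-fold.

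H2BC4 read 6.56 in control, 5.68 with wild-type and 8.68 with mutant JMJD3, 8.0-fold lower. H2BC21 read 9.22, 8.82 and 11.49, 6.36-fold lower, and H2AC8 8.10, 8.18 and 10.17, 3.97-fold lower. H2AC6 (9.15, 9.11 and 10.50) and H2AC17 (7.73, 7.79 and 9.18) were each 2.62-fold lower, and H1-2, a linker histone, 2.46-fold (10.62, 10.55 and 11.85). In all 6 genes the mutant array stood above both others. The family's median was 0.00 for wild-type minus control and 0.64 for mutant minus control. Members of a histone family share much of their coding sequence, so a probe set can read several of them, and without shared probe sets the median was -0.35 over the family, -1.25 over H2A and -0.12 over H2B genes, and -0.87 over the few variant genes left.

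The 250 bases before the starts of H2BC4 (chr6:26123927-26124176, minus strand) and H2BC21 (chr1:149886683-149886932, minus strand), from RefSeq on GRCh38.p14, are shown because these were the histone genes with the largest differences although they lie on different chromosomes. Capitals mark the octamer ATTTGCAT, the element that H2B promoters share and that OCT1 binds, searched on both strands.
H2BC4: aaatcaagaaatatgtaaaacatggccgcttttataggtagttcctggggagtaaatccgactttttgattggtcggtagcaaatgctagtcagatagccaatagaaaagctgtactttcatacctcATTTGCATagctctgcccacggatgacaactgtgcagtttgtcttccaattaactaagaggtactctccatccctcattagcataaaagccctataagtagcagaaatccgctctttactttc
H2BC21: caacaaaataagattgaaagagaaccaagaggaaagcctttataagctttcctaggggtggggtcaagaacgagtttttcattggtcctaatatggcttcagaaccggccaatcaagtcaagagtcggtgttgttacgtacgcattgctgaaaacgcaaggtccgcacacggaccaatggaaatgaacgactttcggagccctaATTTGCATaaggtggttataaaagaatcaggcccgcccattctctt
The octamer begins 123 bases before the start in H2BC4 and 46 bases before it in H2BC21. It was found in the windows of 7 of the 9 measured H2B genes, against 1.80% of 27305 promoters. The same number, 7 of 9, held a TATA box (TATAAA), against 12%. The match in H2BC3, H2BC6, H2BC9, H2BC11 and H2BC12, which were under 2-fold, is part of that count.

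Cell cycle genes did not follow the histones. Of 47 measured G1 and S phase genes 24 lay above 0 and 21 below, 1 was higher and 1 lower, and the median was 0.02. CCND3, a D-type cyclin, read 10.96, 11.73 and 10.25, 2.79-fold higher, with a probe set median of 0.93, and RBL1, an RB family pocket protein, 8.47, 7.44 and 8.59, 2.22-fold lower. Of 44 G2 and mitosis genes 28 lay below 0, with a median of -0.17 that was -0.02 with the median over probe sets. TOP2A, the replicative topoisomerase, was 2.16-fold lower (11.34, 10.64 and 11.75), and KIF11, a spindle kinesin, 2.0-fold (10.62, 9.68 and 10.68). FOXM1, a driver of mitotic genes, lay on the other side with 10.12, 10.50 and 9.57, under 2-fold. Among 26 DNA repair genes, MRE11, a nuclease of double-strand break repair, was 2.09-fold lower (9.73, 8.90 and 9.96), and PMS1, 3.07-fold lower at its brightest probe set, differed by 0.04 without shared probe sets.

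Nuclear-encoded mitochondrial genes and proteasome genes shifted by small amounts in one direction. Of 72 mitochondrial ribosomal protein genes 58 lay above 0 and 10 below, with a median of 0.34. Only 2 were past 2-fold, MRPS7 (10.29, 10.78 and 9.72, 2.09-fold higher) and MRPL55 (8.81, 9.24 and 8.24, 2.0-fold higher). Of 32 complex I subunit genes 28 lay above 0, with a median of 0.23, and NDUFB2 was 2.31-fold higher (11.71, 11.97 and 10.76). For the mitochondrial lists the shift was on the wild-type side of control: the medians for wild-type minus control were 0.33 and 0.27, and those for mutant minus control -0.02 and -0.01. Complexes III to V had 26 of 34 genes above 0, a median of 0.15 and none past 2-fold.

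Of 37 measured proteasome genes 32 lay above 0, with a median of 0.32. PSMD2, a base subunit of the regulatory particle, was 2.10-fold higher (11.87, 12.03 and 10.96), while PSMB9, an inducible subunit of the immunoproteasome, was 3.56-fold lower (6.15, 6.15 and 7.98). Here the mutant array was the one apart, with a median of -0.39 against control. Cytosolic ribosomal proteins, the brightest family, had 38 of 55 genes below 0, a median of -0.08 and a range of -0.40 to 0.37. In 12 genes often used as references the median was 0.17, with 9 above 0, from -0.17 for HPRT1 to 0.47 for POLR2A and GUSB, and without shared probe sets the median was -0.04. Shifts of the size of the mitochondrial medians were thus also seen in single reference genes.

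**Figure D4:**
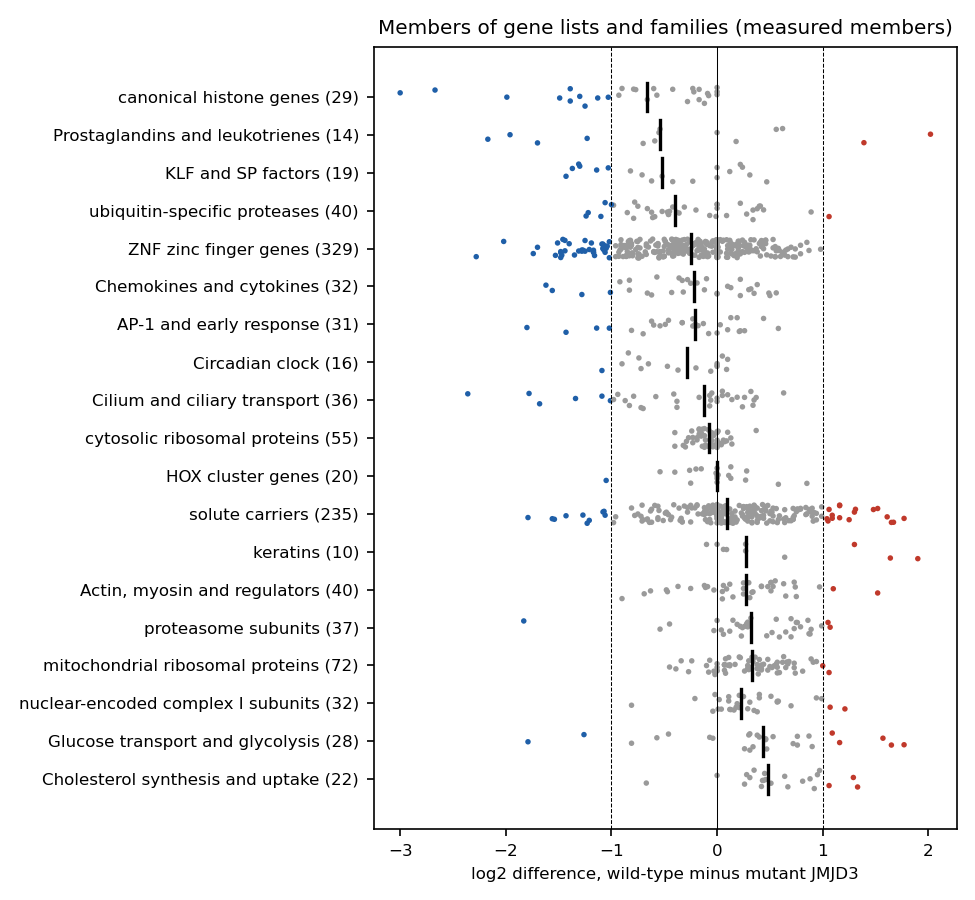
Log2 difference, wild-type minus mutant JMJD3, of each measured member of 19 gene lists and families (number of measured members in brackets), with members past 2-fold coloured, the median as a black bar and dashed lines at 2-fold. Canonical histones lie at or below 0 with a median of -0.66, cholesterol genes lie above 0 but for 2 members, and ZNF genes have 38 members past 2-fold on the lower side and none on the other.

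Of 40 measured genes of the actin cytoskeleton 29 lay above 0, with a median of 0.28. By 2-fold 2 were higher (5%, against 2.61% of all measured genes). The reference genes had 9 of 12 above 0 and a median of 0.17, so a lean of this kind was also seen in them. MYL9, the regulatory light chain of smooth and non-muscle myosin, read 7.27, 8.24 and 6.72, 2.87-fold higher, and 0.38 without shared probe sets. MYH9, the heavy chain of non-muscle myosin IIA, read 8.71, 9.37 and 8.27, 2.14-fold higher. TPM4 and PFN1, a tropomyosin and the actin monomer binder profilin, lay under 2-fold at 1.96-fold and 1.68-fold. On the other side TMSB4X, thymosin beta, was 1.61-fold lower (12.71, 12.93 and 13.62).

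Of 21 measured genes of the spectrin membrane skeleton 1 was higher and 1 lower by 2-fold, and the median was 0.18, and -0.06 without shared probe sets. SPTAN1, the non-erythroid alpha spectrin, read 9.32 in control, 9.74 with wild-type and 8.59 with mutant JMJD3, 2.22-fold higher, and 0.10 with the median over its probe sets. SPTBN1, the beta chain, read 12.23, 12.02 and 11.84, SPTBN4 6.11, 6.25 and 6.05, and SPTB 6.12, 6.19 and 5.89, so all 4 measured spectrins lay above 0 and only 1 was past 2-fold. ADD3, an adducin that joins spectrin to actin, was 6.23-fold lower (7.45, 6.91 and 9.55), while ADD1 lay at 9.40, 9.99 and 9.36. The 4 probe sets of ADD3 had the same direction, a condition of its choice by size. Of 6 measured protein 4.1 genes 5 lay below 0, with a median of -0.51 and none past 2-fold.

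Hippo pathway genes were split. The 12 measured factors and kinases had a median of -0.29 with 8 below 0, and the 16 measured targets a median of 0.30 with 9 above 0 and 7 below. Over the whole list the median was -0.15, and 0.395 with probe set medians. AJUBA, a LIM protein that restrains the LATS kinases, was bright and 4.06-fold higher (11.36, 11.89 and 9.87). Its 3 probe sets had one direction, a condition of its choice by size. AMOTL2, an angiomotin, was 2.03-fold higher (10.67, 11.19 and 10.17), and CCN2, a matricellular target, 1.85-fold (11.78, 12.84 and 11.95). WWTR1, which encodes TAZ, was 2.62-fold lower at its brightest probe set (10.96, 10.25 and 11.64), but another of its probe sets went the other way and their median was 0.12.

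Among adhesion genes the keratins and laminins past 2-fold were all higher. Of 10 measured keratins 8 lay above 0 and 3 were past 2-fold, all higher (30%, against 2.61% of all measured genes). They were KRT80 (7.79, 8.97 and 7.07, 3.73-fold), KRT7 (9.66, 10.80 and 9.16, 3.12-fold, but 0.52 on the log2 scale without shared probe sets) and KRT8 (11.76, 11.97 and 10.67, 2.46-fold). Of 7 measured laminin chains 3 were higher (42.9%, against 2.61% of all measured genes), while the family's median was 0.00. These were LAMA1 as given above, LAMB3, a chain of the epithelial basement membrane, at 2.35-fold (7.31, 8.22 and 6.99), and LAMB2 at 2.31-fold (7.82, 8.56 and 7.35). Of 20 integrins, 23 collagen chains and 12 claudins none was past 2-fold. Several junction genes were lower: EPCAM, an epithelial adhesion molecule, at 2.36-fold (6.17, 5.83 and 7.07), DSC2, a desmosomal cadherin, at 2.31-fold (8.08, 7.54 and 8.75), and OCLN, occludin of tight junctions, at 2.01-fold (7.86, 7.16 and 8.17), with a probe set median of -0.30. Of 23 measured epithelial junction and surface genes 1 was higher and 5 were lower (4.35% and 21.7%, against 2.61% and 6.2% of all measured genes). Across the alternatives the count of lower ones ran from 2 to 5.

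ESAM, an endothelial adhesion molecule, was 2.46-fold higher (6.89, 7.53 and 6.23), and PDGFRB, a growth factor receptor of mesenchymal cells, 2.35-fold higher (6.86, 7.46 and 6.23). Of 9 endothelial markers 6 were at the floor in every array, among them VWF, CDH5 and KDR, and of 11 fibroblast markers 5 were, among them PDGFRA, LUM and COL3A1. The summed signal of the endothelial list was 358, 448 and 317, and that of the fibroblast list 1617, 2223 and 1841 in control, wild-type and mutant. Their part in these 2 genes was not tested.

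Mesenchymal genes split. FN1, fibronectin, read 7.58 in control, 8.31 with wild-type and 10.05 with mutant JMJD3, 3.34-fold lower, with 4 probe sets past 2-fold. TWIST1 and ZEB1, transcription factors of the mesenchymal state, were 2.97-fold lower (8.05, 7.03 and 8.60) and 2.24-fold lower (9.36, 8.68 and 9.84). THBS1, thrombospondin, was 2.40-fold higher (9.65, 10.35 and 9.09). Of 17 measured genes of the list 1 was higher and 3 were lower (5.88% and 17.6%, against 2.61% and 6.2% of all measured genes). In matrix remodelling, MMP24, a membrane metalloproteinase, was 3.61-fold higher (7.16, 8.09 and 6.24), and RECK, a membrane inhibitor of metalloproteinases, 2.69-fold lower (8.17, 7.49 and 8.92), though the medians over their probe sets were 0.54 and -0.29. PLOD2, a lysyl hydroxylase, was 2.25-fold lower (9.91, 8.70 and 9.87).

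In the BMP pathway the ligand side and the receptor side differed. BMP2, the ligand, read 8.43, 10.34 and 8.62, 3.29-fold higher. Both its measured probe sets had the same direction, a condition of its choice by size. ID3, a direct target that blocks helix-loop-helix factors, read 9.63, 11.09 and 9.69, 2.64-fold higher, and ID1 10.41, 11.75 and 10.81, 1.92-fold higher. For these 3 genes the wild-type array stood above the control and the mutant alike. FSTL3, a follistatin-like antagonist, was 2.20-fold higher (7.44, 8.41 and 7.27). Of 8 measured receptors and SMADs 3 were lower (37.5%, against 6.2% of all measured genes). They were SMAD9 at least 3.97-fold (5.97, 5.14 and 7.47), ACVR2B, an activin receptor, 2.57-fold (7.32, 6.73 and 8.09), and SMAD5, 2.17-fold (10.04, 9.41 and 10.53). With the median over probe sets these 3 were under 2-fold, and ACVR2B lay at 0.01.

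Wnt genes were called 3 on each side among 33 (9.09% each, against 2.61% higher and 6.2% lower of all measured genes). AXIN2, a feedback target, was 2.28-fold higher (9.62, 9.59 and 8.40), FZD2, a receptor, 2.06-fold higher (9.37, 10.27 and 9.23), and DKK1, an antagonist, 2.04-fold higher (8.83, 10.94 and 9.91). FZD3 was 3.43-fold lower (6.91, 5.71 and 7.49), the co-receptor LRP6 2.14-fold lower (10.04, 9.01 and 10.11), and MYC, 2.03-fold lower (11.98, 11.55 and 12.57). AXIN2 and LRP6 had probe set medians of 0.38 and -0.01, and across the alternatives the Wnt calls ran from 1 to 3 on each side. Of growth factors, FGF9 was at least 3.84-fold lower (6.95, 5.31 and 7.42), PDGFC 2.46-fold lower (5.33, 6.11 and 7.41), and the receptor gene ERBB2 2.09-fold higher (8.70, 9.32 and 8.26). GRB14, an adaptor that inhibits the insulin receptor, was 3.01-fold lower (7.96, 6.07 and 7.66), and IGFBP1, a secreted IGF binder, 2.11-fold higher (11.80, 12.56 and 11.48). The probe set medians of ERBB2 and IGFBP1 were 0.22 and 0.54. Of 28 TGF-beta genes 1 was lower by 2-fold and none higher, and of 24 Notch genes none was past 2-fold.

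KLF and SP factors and FOXO genes past 2-fold were all lower. Of 19 measured KLF and SP genes 12 lay below 0, 6 were 2-fold or more lower (31.6%, against 6.2% of all measured genes) and none higher, with a median of -0.52. Across the alternatives the count of lower genes ran from 1 to 6, and the median was -0.19 with probe set medians. KLF2 read 8.09 in control, 8.44 with wild-type and 9.87 with mutant JMJD3, 2.69-fold lower, and KLF9, a glucocorticoid-responsive factor, 8.32, 8.59 and 9.96, 2.59-fold lower. KLF12, SP4, KLF10 and KLF3 followed at 2.48-fold, 2.46-fold, 2.20-fold and 2.04-fold lower. For KLF2 and KLF9 the mutant array stood alone. Without shared probe sets KLF2 differed by 0.00, and the probe set medians of KLF9, SP4 and KLF3 were -0.19, -0.67 and 0.00. Of 19 measured FOXO factors and targets 14 lay below 0 and 3 were lower (15.8%, against 6.2% of all measured genes). They were KLF2 with the same limit, FOXO1 (7.60, 7.19 and 8.31, 2.17-fold, with a probe set median of -0.66) and RICTOR, a subunit of mTOR complex 2 (11.09, 10.13 and 11.38, 2.38-fold).

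Early response genes were lower in the same arrays. JUN, an AP-1 subunit, read 9.46 in control, 9.93 with wild-type and 11.73 with mutant JMJD3, 3.48-fold lower, in the same direction in 4 probe sets. DUSP2, a nuclear MAP kinase phosphatase counted among the MAPK feedback regulators, read 9.10, 9.65 and 11.13, 2.79-fold lower. It was the only 1 of 21 measured genes of that list past 2-fold (4.76% lower, against 6.2% of all measured genes). EGR1 and FOS lay at 1.75-fold and 1.52-fold lower, with 13.36, 12.92 and 13.73 and with 11.80, 11.92 and 12.52. Of 31 measured early response genes 21 lay below 0, with a median of -0.21 for the list. By 2-fold 4 were lower (12.9%, against 6.2% of all measured genes) and none higher. These 4 were JUN, KLF2 with the limit given above, KLF10 and MYC, and all but JUN are also counted in the KLF family or the Wnt list. Across the alternatives the count ran from 1 to 4. Of the 16 circadian clock genes 10 lay below 0 and 1 was past 2-fold, PER3 at 2.13-fold lower (7.27, 6.62 and 7.71), but -0.02 on the log2 scale without shared probe sets.

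Inflammatory genes past 2-fold were nearly all lower. Of 9 measured chemokines 3 were lower (33.3%, against 6.2% of all measured genes). They were CXCL1 (5.12, 5.76 and 7.38, 3.07-fold), CXCL8 (4.40, 4.40 and 7.04, at least 2.95-fold) and CXCL2 (6.13, 6.16 and 7.44, 2.43-fold), all attractants of neutrophils. LIFR, a receptor of the interleukin 6 family, was 2.01-fold lower (12.13, 11.32 and 12.33). CXCL8 and LIFR had probe set medians of -0.42 and -0.46. NFKBIZ, a nuclear cofactor of NF-kB, was 3.76-fold lower (10.34, 9.46 and 11.37), and the subunit gene REL 2.89-fold lower (8.27, 6.80 and 8.33), while RELA lay at 8.91, 9.55 and 8.99. The probe set median of REL was -0.85. Of 31 interferon-stimulated genes 2 were lower (6.45%, against 6.2% of all measured genes), so that list stood near the share over all genes. They were HERC5 at 4.72-fold (7.02, 5.91 and 8.15) and IFITM1 at 2.77-fold (6.48, 7.46 and 8.93). HLA-DMB, which loads class II molecules, was 2.35-fold lower (9.46, 10.34 and 11.57).

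Eicosanoid synthesis had members far out on either side. PLA2G4A, the cytosolic phospholipase that frees arachidonic acid, read 9.86 in control, 8.58 with wild-type and 10.75 with mutant JMJD3, 4.50-fold lower. PTGS2, the inducible cyclooxygenase, read 8.97, 8.13 and 10.09, 3.89-fold lower in its brightest probe set, and both of its probe sets were past 2-fold. For both genes the wild-type array was lowest and the mutant highest. ALOX5, the lipoxygenase of leukotriene synthesis, was 3.25-fold lower (5.41, 6.84 and 8.54), with the control lowest, and SLCO2A1, a prostaglandin carrier, 2.35-fold lower (5.73, 5.68 and 6.91). PLA1A, a phospholipase of phosphatidylserine, was 4.06-fold higher (6.25, 7.64 and 5.62). PTGS1, the constitutive cyclooxygenase, was 2.62-fold higher (12.14, 13.05 and 11.66) but -0.88 without shared probe sets. The list's median was -0.55 over 14 genes, and -0.04 with the median over probe sets.

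PTGS2 and PLA2G4A are neighbours on chromosome 1 in the measured gene order, and RGS2, a regulator of G protein signalling that follows them, was also lower, at 2.50-fold (12.52, 11.48 and 12.80). Complement and defence genes included C1S, a serine protease of the classical path, 2.46-fold higher (8.88, 9.58 and 8.28) with a probe set median of 0.65, and DEFB1, a constitutive epithelial defensin, 3.68-fold lower (5.53, 6.38 and 8.26). Of 11 measured genes of that list 1 was higher and 2 were lower (9.09% and 18.2%, against 2.61% and 6.2% of all measured genes).

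Stress and redox genes differed by member. AKR1C1 and AKR1C2, near-identical aldo-keto reductases of steroid and xenobiotic metabolism whose probe sets can read both, were 4.76-fold lower (7.67, 8.28 and 10.53) and 3.18-fold lower (7.14, 7.90 and 9.57), and the probe set median of AKR1C2 was -0.51. KEAP1, the inhibitor of NRF2, was 2.14-fold higher (8.55, 9.11 and 8.01), and none of 14 measured antioxidant targets was past 2-fold. AIFM2, a suppressor of ferroptosis, was 3.43-fold higher (10.93, 11.11 and 9.33) but 0.17 without shared probe sets, and MSRB1, a selenium-containing methionine sulfoxide reductase, 2.16-fold higher (9.50, 10.22 and 9.11). GCH1, which starts tetrahydrobiopterin synthesis, was 2.48-fold lower (7.31, 6.92 and 8.23). In the amino acid response, ASNS, asparagine synthetase, was 2.33-fold lower (8.88, 9.87 and 11.09), CEBPG 2.97-fold (8.12, 7.54 and 9.11), and ALDH1L2, a mitochondrial folate enzyme, at least 3.51-fold (5.37, 4.57 and 7.29). ASNS and CEBPG had probe set medians of -0.81 and -0.80. None of the 32 genes of that list was higher by 2-fold.

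CRYAB, the small heat shock protein alpha-B crystallin, read 6.49, 8.20 and 6.15, 4.14-fold higher, and was the only one of 25 measured heat shock genes past 2-fold. ATF6, a sensor of unfolded proteins, was 2.87-fold lower (8.64, 8.26 and 9.78), the only one of 29 in its list, and -0.38 with the median over its probe sets. TP53I3, a p53-induced quinone reductase, was 3.23-fold higher (9.92, 10.52 and 8.83), and CASP9, the initiator caspase, 2.06-fold higher (10.03, 11.18 and 10.14). PMAIP1, the BH3 protein NOXA, was 3.25-fold lower (8.86, 7.88 and 9.58). In polyamine synthesis, ODC1 and SRM were 2.07-fold higher (12.56, 12.99 and 11.94) and 2.17-fold higher (10.02, 10.54 and 9.42), and AMD1, the decarboxylase between them, was 2.13-fold lower (9.69, 9.01 and 10.10), with a probe set median of -0.55. Of 30 lysosome and autophagy genes 22 lay above 0, with a median of 0.19, near the 0.17 of the reference genes. ATP6V0D1, a proton pump subunit, was 2.01-fold higher (9.51, 10.11 and 9.10).

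Large families of gene regulators leaned to the lower side. Of 329 measured ZNF zinc finger genes 206 lay below 0 and 95 above, and 38 (11.6%, against 6.2% of all measured genes) were lower by 2-fold with none higher. The family's median signal of 7.46 lies in the class of signal with 9.74% lower genes. ZNF277 was 4.86-fold lower (9.32, 8.95 and 11.23) and ZNF367 2.79-fold (10.02, 8.88 and 10.36), and the probe set median of ZNF277 was -0.91. Across the alternatives the count of lower ZNF genes ran from 21 to 42. The ZNF median was -0.25, with -0.10 for wild-type minus control and 0.04 for mutant minus control. Of 40 ubiquitin-specific proteases 26 lay below 0, with a median of -0.40. By 2-fold 5 were lower (12.5%, against 6.2% of all measured genes) and 1 higher, USP11 at 2.09-fold (10.11, 10.66 and 9.60). The count of lower proteases ran from 1 to 5.

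Of 36 measured cilium genes 6 (16.7%, against 6.2% of all measured genes) were lower by 2-fold and none higher, and across the alternatives the count ran from 2 to 7. IFT80 and IFT88, of the intraflagellar transport train, were 3.43-fold lower (10.03, 8.93 and 10.71) and 2.53-fold lower (7.89, 7.19 and 8.53), and ARL6 and BBS7, which work with or in the BBSome, at least 5.13-fold (6.94, 5.40 and 7.84) and at least 3.20-fold (6.49, 5.40 and 7.16). In these 4 genes the wild-type array was below both others. IFT80 and BBS7 had probe set medians of -0.82 and -0.84. Of 248 measured antisense transcripts 29 (11.7%) were lower and 2 higher, at a median of 0.00, with 13 to 30 lower across the alternatives. GABPB1-AS1 was 3.41-fold lower (8.88, 7.80 and 9.57), and HOXD-AS2 2.87-fold higher (8.60, 9.50 and 7.98). Which strand these probe sets read was not checked, so antisense and sense transcripts cannot be told apart. The 20 measured HOX genes had a median of 0.00 and 1 past 2-fold, HOXB8 at 2.07-fold lower (5.60, 6.07 and 7.12), with a probe set median of -0.03.

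Solute carriers were the large family with more higher than lower calls: 17 of 235 measured genes (7.23%, against 2.61% of all) were higher and 10 (4.26%, against 6.2%) lower, with a median of 0.09. Beside the glucose transporters, SLC25A51, the mitochondrial NAD carrier, was 2.79-fold higher (6.80, 7.56 and 6.08), SLC22A4, the ergothioneine transporter, 2.38-fold (8.70, 9.48 and 8.23), and SLC19A1, the reduced folate carrier, 2.13-fold (8.63, 9.14 and 8.05). SLC30A4, a zinc exporter, was at least 2.95-fold lower (5.63, 5.38 and 7.04), and SLC1A1, a glutamate transporter, 2.11-fold lower (8.26, 6.93 and 8.01). The probe set medians of SLC25A51, SLC19A1 and SLC1A1 were 0.76, 0.49 and -0.54. ABCB1, the multidrug exporter, read 8.88, 8.72 and 7.17, 2.93-fold higher with a probe set median of 0.83, and the mutant array was low and the others level.

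By chromosome, the share of lower genes ranged from 1.21% on chromosome 22 to 15.4% on chromosome 13. On chromosome 13, 34 of 221 measured genes were lower and 3 higher, with a median of -0.34, and the medians against control were -0.12 for wild-type and 0.11 for mutant JMJD3. Chromosomes 22, 19 and 17 had the highest medians, 0.18, 0.16 and 0.15. Median signals of chromosomes 13 and 22 were 8.23 and 7.73. Along the genome, in RefSeq gene order, neighbouring measured genes were both lower in 103 adjacent pairs and both higher in 16. Lower calls were also the more frequent ones (6.2% against 2.61% of measured genes), and pairs in a random gene order were not counted.

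**Figure D5:**
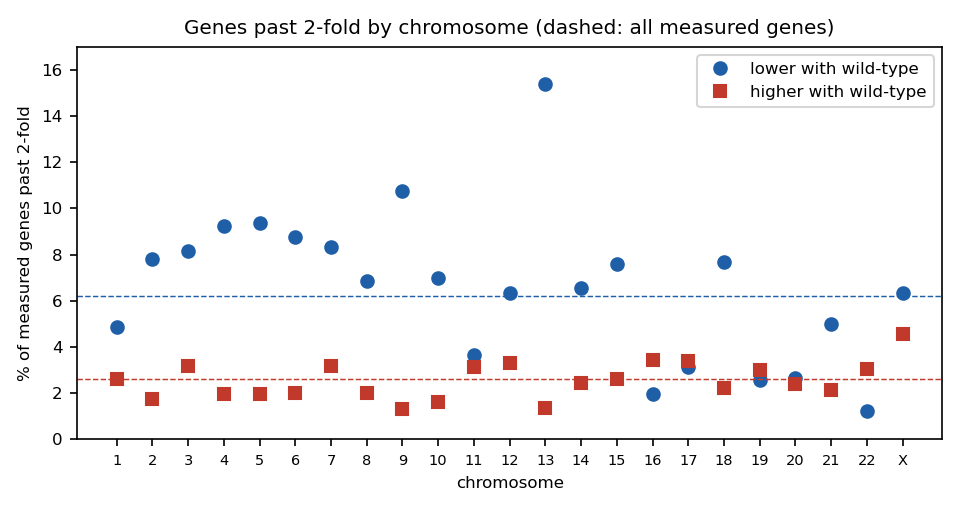
Share of measured genes, in percent, that were 2-fold or more lower (circles) or higher (squares) with wild-type JMJD3 on each chromosome, with dashed lines at the shares over all measured genes (6.2% lower and 2.61% higher). Chromosome 13 has the highest lower share at 15.4% and chromosome 22 the lowest at 1.21%, while the higher share lies between 1.30% and 4.55%.

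Among 12248 overlapping runs of 25 consecutive measured genes, the lowest median was -0.85 and the 1st percentile -0.67. A run with the lowest median lay on chromosome 3 between C3orf38 and CEP97, where 11 genes were lower and 1, TMEM45A, was higher by 2-fold. The lower genes there included ARL6, RIOX2, SENP7, TRMT10C, PCNP and ZBTB11, and RIOX2, a ribosomal oxygenase, read 9.37, 8.11 and 9.57 (-0.82 without shared probe sets). The run's median was -0.80 for wild-type minus control and 0.11 for mutant minus control, so the wild-type array was the one apart. Further low runs lay on chromosome 11 from AMOTL1 to AASDHPPT (-0.83), chromosome 7 from CCDC126 to NOD1 (-0.80) and chromosome 9 from ABCA1 to KIAA1958 (-0.78). The highest run median was 0.52. Copy number of the lines was not measured, and its part in these runs was not tested.

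The medians of promoter composition differed little between the sides, but the shares over classes of CpG content did. RefSeq windows from 250 bases before to 50 after the start were at hand for 10348 of the 12829 measured genes (80.7%). The median GC content was 65.3% for all of them, 65.3% for higher and 65.0% for lower genes, and the median ratio of observed to expected CpG was 0.83, 0.80 and 0.85. From the lowest to the highest of 5 classes of that ratio, the share of lower genes went from 4.49% to 7.05% and that of higher genes from 2.90% to 1.69%, while the median signal went from 6.87 to 9.0. The end classes thus differed in opposite directions for the 2 sides, and they differed in signal too.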

How the data were processed

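The authors deposited log2 values of 54613 probe sets for each of 3 arrays. MAS5, an Affymetrix signal algorithm, was used per the submitters' processing notes. Its settings and the normalization between arrays are not given in the sources used here. The wild-type and mutant columns held the same value at 28.6% of the probe sets, so a difference of 0 does not show equal transcript levels. Gene names come from the platform annotation: 41091 probe sets had 1 gene symbol and were used, 1801 had several and 11721 none. The brightest probe set by the mean of 3 arrays stood for each of 19775 genes, and values were floored at the pooled median (log2 5.48). The call was a fold of 2. No sample column was left unused (0).

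With 1 array per line no test was possible and no p-value was computed. The members, 69 gene lists, 62 families named by symbol and the motifs were chosen with earlier results of these data known. Probe sets ending in _s_at or _x_at can share probes with other transcripts. Named genes are KDM6B, KDM6A, HKDC1 and the spectrins, genes among the 30 largest differences in either direction (both arrays above the floor, at least 1 above the pooled 75th percentile of log2 7.59, and all measured probe sets agreeing in sign), and genes among the 10 brightest in either direction whose second array was at the floor. From each list or family come all members where it holds 12 or fewer, and otherwise up to 8 with the largest difference and up to 4 of the brightest. The paired element of the TXNIP promoter was searched after the sequence was seen. The calculation was tested on simulated data. Alternatives were quantile normalization, arrays moved to one median, a floor at the 40th or the 60th percentile, an added offset without a floor, taking the median of all probe sets per gene, leaving out shared probe sets, choosing probe sets by the 2 arrays, and folds of 1.5 and 3. RefSeq tables of GRCh38.p14 gave names, gene order and promoters. Scripts ran under Python 3.11.15 with pandas 2.3.3, numpy 2.4.6 and, for figures, matplotlib 3.10.9.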

Additional observations from a re-analysis of the deposited data

How the results depend on the processing

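Against 335 higher and 795 lower genes, an offset in place of the floor gave 208 and 479, and the median over all probe sets of a gene gave 226 and 501. A fold of 1.5 gave 1452 and 2043, and a fold of 3 gave 46 and 138. Quantile normalization gave 413 and 672, so that 38.1% of the calls were higher in place of 29.6%, with the median of all genes at 0.087. Without shared probe sets the share was 23.5%. Of 389 named genes past 2-fold, 163 kept their call under every alternative of scaling, floor and probe set that measured them. The folds of 1.5 and 3 were applied to the counts of all genes only. With the median over probe sets the direction turned for ACVR2B (0.01), DNAJC15 (-0.26), PDK3 (0.36), PTPRG (0.07), RAB8B (0.15), WWTR1 (0.12), ZNF33A (0.18) and ZNF655 (0.97). So did the median of 11 of 130 lists and families, most with a median near 0, the larger moves being the YAP and TEAD list (0.395), the histone variants (-0.36) and the EGFR family list (0.11). Without shared probe sets it turned for PMS1 (0.04), PTGS1 (-0.88) and USP25 (0.05). So did the median of 15 lists and families, among them the annexins (-0.065), the LXR list (-1.21), the histone variants (-0.87), fatty acid synthesis (-0.51), hypoxia (-0.36), the ATF4 list (-0.30), initiation factors (-0.27), the spectrin skeleton (-0.06) and the reference genes (-0.035). Quantile normalization turned 7 medians and a floor at the 60th percentile 6. No paired analysis was possible because each line had 1 array and the labels carry no replicate numbers. The lack of replicates and the unstated normalization limit every value, and probe sets near the floor give only bounds.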

Other observations

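Probe sets with no gene symbol gave a like picture and were not named. Of 3777 measured ones, 52 (1.38%) were higher and 218 (5.77%) lower with wild-type JMJD3 by 2-fold. Of 1163 measured probe sets with several symbols, 24 (2.06%) were higher and 60 (5.16%) lower. Over all 28299 measured probe sets the shares were 2.38% and 6.43%. Of 161 measured LINC transcripts and snoRNA hosts 3 were higher and 6 lower (1.86% and 3.73%, against 2.61% and 6.2% of all measured genes). Among them were LINC03040, 4.79-fold higher (7.83, 8.47 and 6.21 in control, wild-type and mutant, but 0.71 on the log2 scale with the probe set chosen by the 2 arrays), LINC01116, 2.41-fold higher (6.23, 8.11 and 6.84), and SNHG32, 2.59-fold lower (11.24, 11.01 and 12.38). CYP1B1, a cytochrome of steroid and xenobiotic metabolism, was 3.25-fold lower (9.25, 9.21 and 10.91). Of 44 measured RAB GTPases 3 were lower and none higher, 6.82% against 6.2% of all measured genes, so the family stood near the background. Of 16 phosphodiesterases 12 lay below 0, with PDE3A 2.66-fold lower (11.11, 10.02 and 11.43) and a probe set median of -0.74 for that gene.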
